A study of Mus musculus with 8 samples.

Results

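The genes described here are 10 genes of cytokinesis and the midbody, Anln, Ect2, Racgap1, Kif23, Kif20a, Prc1, Aurkb, Birc5, Cit and Cep55. They were selected by gene symbol in the matrix of raw read counts, where each has a single row, and make up 10 of 42391 gene entries. Bulk polyA RNA was sequenced from 8 samples of mouse myogenic cells. C2C12 cells, an immortalised mouse myoblast line, were lysed 60 h after transfection, of which the last 12 h were spent in differentiation medium, and primary myoblasts from mouse muscle were lysed 48 h after transfection while they were proliferating. Control cells were transfected with a non-targeting siRNA and Septin9-deficient cells with a single siRNA against Septin9, with 2 replicates in each of the 4 groups. C2C12 cells received 50 nM siRNA, and the dose for primary myoblasts is not given in the sources used here. The labels give the control samples of both cell types as WT and the others as Septin 9 KD, and name no other allele or agent for any group. The comparison asks how transcripts of the cell division machinery stand in cells with less Septin9, since septins are part of that machinery themselves.

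At the end of mitosis the cell builds a ring of actin and myosin under the membrane between the separating chromosomes, and bundled microtubules of the central spindle tell it where to form. The ring closes the membrane down to the midbody, a thin bridge that is finally cut in abscission. In muscle, myoblasts divide until they leave the cell cycle and fuse into multinucleated myotubes, which no longer undergo cytokinesis. The 10 genes cover the ring scaffold (Anln), the RhoA activator and its partners of centralspindlin (Ect2, Racgap1, Kif23), other central spindle proteins (Kif20a, Prc1), the chromosomal passenger complex (Aurkb, Birc5), and the late midbody (Cit, Cep55). Their transcripts accumulate in G2 and mitosis, and many genes with this timing carry a short promoter element called the cell cycle genes homology region (CHR), often close to a CCAAT box.

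Promoter sequences from RefSeq (build GRCm38.p6) were read to show how far the genes share these elements. Windows from 250 bases before to 50 bases after a transcript start were available for 8 of the 10 genes, in 11 windows, with none used for Aurkb and Kif20a. The CHR was searched as TTTGAA and its reverse complement TTCAAA, and the CCAAT box as CCAAT and ATTGG, motifs that do not overlap each other in these windows. A CHR was present in 9 of the 11 windows, which belong to 6 genes, against 17.9% of all 32851 windows of the same length. Counted by gene, 6 of 8 had one, against 20.2% of 27025 genes. A CCAAT box was present in 6 of the 11 windows, against 37.4% of all windows. Both elements were found in 6 of the 11, against 7.52% of all windows, which also counts a variant CHR, TTCGAA, that was present in none of the 11 and in 1.56% of all. These 6 windows belong to Ect2, Kif23, Racgap1 and Prc1. The windows of Ect2 overlap each other, as do those of Prc1 and those of Cep55, so the same sites are counted more than once. The share of all genes with a CCAAT box or with both elements was not counted. The windows of Birc5 and Cit held no CHR by these letters. The stretches of 30 bases below, written along each gene's own strand, show a CHR of each gene in capitals, with any CCAAT box that falls within the same stretch.
Ect2, chr3:27153966-27153995, minus strand: ggaTTTGAAacacactcacaaCCAATcagc
Kif23, chr9:61946784-61946813, minus strand: gccgctgATTGGcctgTTTGAAatgcgccg
Racgap1, chr15:99651642-99651671, minus strand: gtgATTGGctggtgcgtgatTTTGAAccgg
Prc1, chr7:80294434-80294463, plus strand: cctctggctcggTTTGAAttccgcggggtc
Anln, chr9:22389164-22389193, minus strand: cgctgaaaTTCAAAtTTTGAAcggccgtgg
Cep55, chr19:38054996-38055025, plus strand: acagccgcgggaTTCAAActcccggaagcg
In Kif23 and Racgap1 the CHR begins 2 and 5 bases after the transcript start, with the reverse CCAAT box just before it. In the Ect2 stretch the order is turned, with the CHR 114 bases before one of its annotated starts and a CCAAT box after it, but the same window holds a further CHR 39 bases after that start, with CCAAT boxes before it. Prc1 also has a CCAAT box, 37 bases before the start whose CHR lies 5 bases before it, which falls outside the stretch shown. Anln has the CHR in both orientations side by side. A match of letters is a description of the sequence and not of binding.

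Between 20898611 and 27223414 reads were counted on genes per sample, and each of the 10 genes had between 254 and 7473 counts in every sample. Levels are given as CPM, the reads of a gene relative to all reads counted in its sample, scaled within a cell type by the trimmed mean of M-values (TMM). Septin9, the targeted gene, stood at 430 and 441 CPM in C2C12 control replicates 1 and 2 and at 151 and 189 CPM in the Septin9-deficient ones. In primary myoblasts it stood at 365 and 459 CPM in controls and at 199 and 157 CPM after Septin9 siRNA. The groups did not overlap in either cell type, and Septin9 fell by 1.36 (standard error 0.08, adjusted p = 5.1e-09) and by 1.21 (standard error 0.15, adjusted p = 0.00013) on the log2 scale, in the quasi-likelihood test of edgeR, in which each replicate number formed a block. Unless stated otherwise, this test gives the fold changes and adjusted p-values below, and a gene was called at an adjusted p under 0.05. Markers of myoblasts were present throughout, with at least 1432 counts of Myod1 and 9602 of Des in every sample. Of 6 endothelial markers 4 passed the filter on low counts in primary myoblasts, with sums of 2.42 and 3.79 CPM in controls and 2.44 and 4.72 CPM after Septin9 siRNA, and none passed in C2C12 cells, where Kdr, Emcn and Cldn5 had 0 counts in every sample. Of 6 leukocyte markers 3 passed in primary myoblasts, with sums between 2.27 and 3.86 CPM, and 1 in C2C12 cells, Cd68, and the defining marker Ptprc had at most 1 count in a sample. Of 8 fibroblast markers 5 passed in C2C12 cells, where they summed to between 2523 and 3158 CPM, mainly through Col3a1, and 6 in primary myoblasts. In primary myoblasts they summed to 349 and 831 CPM in control replicates 1 and 2 and to 314 and 1016 CPM in the Septin9-deficient ones, so they went with the replicate, and their part in the results below was not tested.

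In control cells all 10 genes were expressed in both cell types. To compare levels between genes, control CPM were divided by the length of the longest coding transcript in kilobases (RPKM). Racgap1 had the highest mean level, 72.4 ± 29.1 RPKM in C2C12 cells and 34.3 ± 4.84 RPKM in primary myoblasts (SD, n = 2), and Cit the lowest, 3.93 ± 1.62 and 2.06 ± 0.323 RPKM. The order in C2C12 cells was Racgap1, Anln, Kif20a, Prc1, Kif23, Ect2, Aurkb, Birc5, Cep55 and Cit, and in primary myoblasts Prc1 came to the place after Racgap1, with Anln and Kif20a following. The ranges of the 2 replicates overlapped between 8 of the 9 neighbours of this order in C2C12 cells, the exception being Cep55 and Cit. They overlapped in 6 of 9 in primary myoblasts, where Kif20a and Kif23, Birc5 and Cep55, and Cep55 and Cit were separate. Within a replicate the order was steadier, since 7 of the 9 neighbours stood in the same order in both replicates in each cell type. With the length of all annotated exons in place of the coding transcript, Kif20a came to the top in both cell types, at 34.1 and 26.7 RPKM, and Cit remained the lowest. Most places between them changed as well. In C2C12 cells Birc5 moved from place 8 to 4, Cep55 from 9 to 6, Prc1 from 4 to 8 and Kif23 from 5 to 9. In primary myoblasts Racgap1 moved from place 1 to 4, Prc1 from 2 to 6 and Ect2 from 6 to 3. Aurkb kept place 7 in both cell types.

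**Figure D1:**
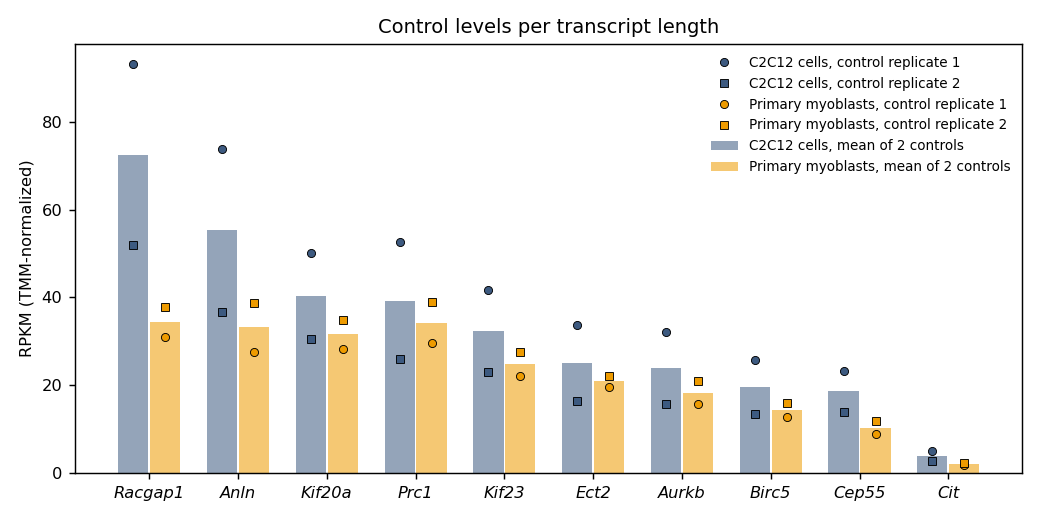
Bars show the mean RPKM (vertical axis, TMM-normalized CPM per kilobase of the longest coding transcript) of the 2 control samples of each cell type for the 10 genes, and points show each sample. The C2C12 replicates lie far apart, with replicate 1 above replicate 2 for every gene, and Cit is the lowest gene in both cell types.

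The largest distance between control cell types was that of Racgap1, which stood at 284 and 158 CPM in C2C12 controls and at 94.4 and 115 CPM in primary myoblast controls, scaled over the 4 control samples. Its groups did not overlap, and its log2 ratio of primary myoblasts to C2C12 cells was -1.08 (standard error 0.32, adjusted p = 0.054). Cit had a log2 ratio of -0.93 (adjusted p = 0.086) and Cep55 of -0.85 (adjusted p = 0.088), with groups that did not overlap either, so that 3 of the 10 had separate groups, against 37.1% of all genes with separate groups and primary myoblasts lower. For the other 7 genes the primary myoblast values lay within or overlapped the span of the C2C12 controls, and the log2 ratios were between -0.74 (Anln) and -0.19 (Prc1). None of the 10 was called, where 34.5% of 17103 genes were called in either direction, while 3 of the 10 and 8199 of all genes had an unadjusted p under 0.05. DESeq2 called Racgap1 (adjusted p = 0.0093) and Cit (adjusted p = 0.046), where it called 6486 of 27072 genes in all. A fit of all 8 samples called Racgap1 (adjusted p = 0.048), where it called 7463 of 17918 genes in all. C2C12 control replicate 1 decided the direction, since without it the median log2 ratio of the 10 genes moved from -0.42 to 0.05, with 4 of 10 below 0. Cell type, time after transfection and culture medium changed together between these groups and cannot be told apart.

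After Septin9 siRNA, every one of the 10 genes was lower than its control in both replicate pairs of both cell types, so that 40 of 40 pair ratios were below 0. Among all genes, 31.4% were lower in both pairs in C2C12 cells and 29.2% in primary myoblasts. In C2C12 cells 6 of the 10 were called lower, namely Birc5, Aurkb, Cit, Ect2, Prc1 and Anln, against 4.12% of all 15814 genes tested. In primary myoblasts 2 of the 10, Aurkb and Birc5, were called lower, against 1.04% of 17117 genes. Over the 10 genes the log2 fold changes had a median of -0.28 for C2C12 cells and -0.31 for primary myoblasts, while all genes tested had medians of -0.00079 and 0.010. With all samples, none of the 10 met, in edgeR or DESeq2, the study's rule for a differentially expressed gene (DEG), an adjusted p under 0.05 with an at least 1.5-fold change, which 1.57% of genes met in C2C12 cells and 3.17% in primary myoblasts. Without primary myoblast replicate 2, which leaves 1 sample per group, the log2 fold change of Cit was -0.61, beyond 1.5-fold. In bulk RNA, fewer dividing cells and less of these transcripts per dividing cell cannot be told apart.

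The calls rest on pairing each Septin9-deficient sample with the control of its own replicate number. Without the replicate block edgeR called 0 of the 10 genes and no other gene in either cell type, with an adjusted p of 1.00 for every one of the 10, while 372 and 378 genes had an unadjusted p under 0.05. In C2C12 cells the control and Septin9-deficient groups overlapped for all 10 genes, where 12.7% of all genes had separate groups with the Septin9-deficient samples lower, and both samples of replicate 1 lay above both samples of replicate 2. In primary myoblasts the groups were separate for Ect2, Aurkb and Birc5, 3 of 10, against 14.8% of all genes. DESeq2 with the same block called Birc5 in C2C12 cells, where 289 of 24889 genes were called in all. It called none of the 10 in primary myoblasts, where 254 of 27057 genes were called in all. With 1 replicate pair left out, each group of that cell type held 1 sample, so effect sizes are given. The median log2 fold change of the 10 was -0.26 in each cell type without replicate 1. Without replicate 2 it was -0.29 in C2C12 cells and -0.36 in primary myoblasts. An unadjusted p under 0.05 was reached by 9 of the 10 in each cell type with the block, the exceptions being Kif23 in C2C12 cells and Cep55 in primary myoblasts. Among all genes tested, 2962 of 15814 reached it in C2C12 cells and 2864 of 17117 in primary myoblasts.

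**Figure D2:**
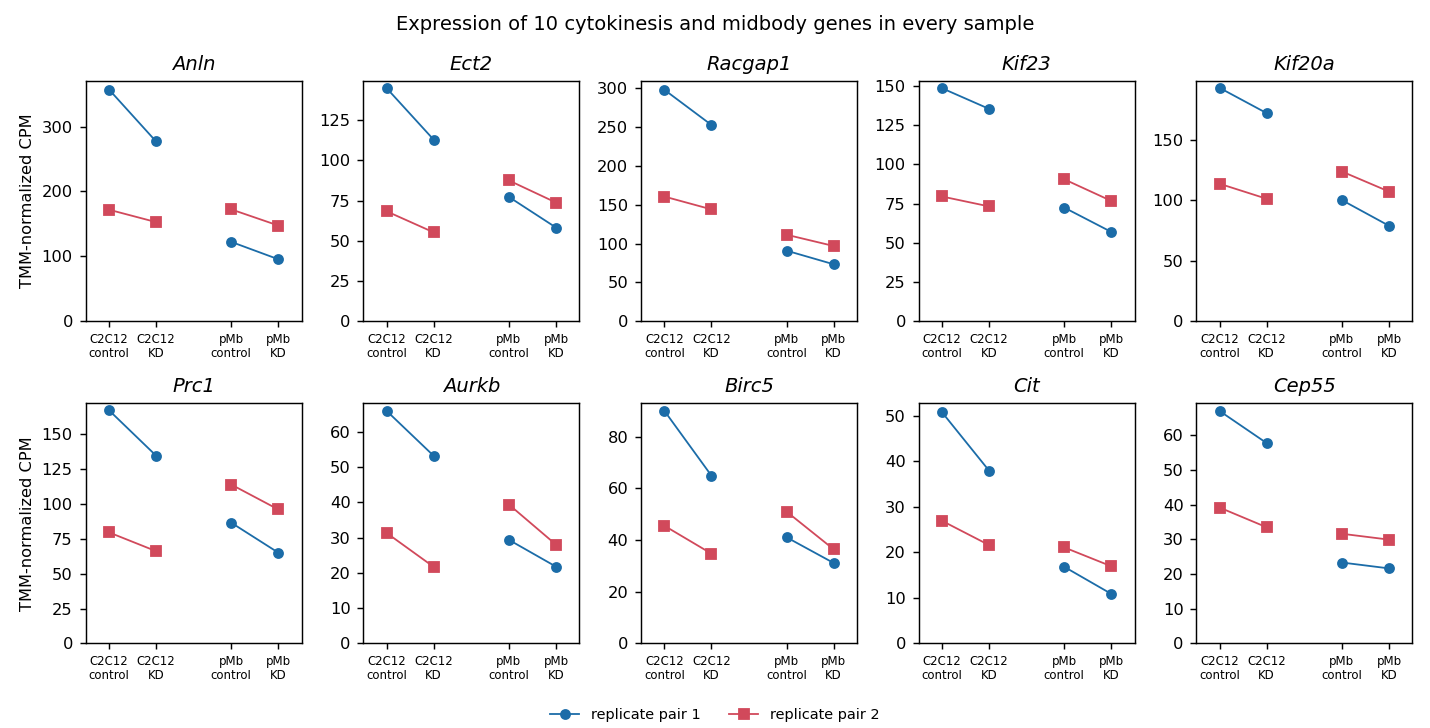
TMM-normalized CPM (vertical axis, from 0) of the 10 genes in the 8 samples, with a line from the control to the Septin9-deficient (KD) sample of each replicate pair (circles, pair 1, and squares, pair 2) in C2C12 cells and primary myoblasts (pMb). All 40 lines fall, and in C2C12 cells the distance between the pairs is larger than the fall within them.

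Anillin (Anln, chr9:22331214-22389211) is the scaffold that ties actin, myosin, RhoA and septins together in the contractile ring. In C2C12 cells it stood at 357 and 172 CPM in control replicates 1 and 2 and at 277 and 153 CPM after Septin9 siRNA. The corresponding levels in primary myoblasts were 122 and 172 CPM in controls and 95.6 and 148 CPM after Septin9 siRNA. The groups overlapped in both cell types, and replicate 1 was the higher one in C2C12 cells and the lower one in primary myoblasts. Anln fell by 0.27 on the log2 scale in C2C12 cells (standard error 0.07, adjusted p = 0.022), with pair ratios of -0.37 and -0.17. Its log2 fold change of -0.29 in primary myoblasts was not called (standard error 0.11, adjusted p = 0.17). The annotation places another gene, 9530077C05Rik, across the start of Anln, and whether reads were assigned by strand is not given in the sources used here.

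Ect2 (chr3:27097222-27154253), the exchange factor that activates RhoA at the division plane, stood at 145 and 68.3 CPM in C2C12 controls and at 113 and 55.2 CPM in Septin9-deficient C2C12 cells. In primary myoblasts Ect2 levels were 77.2 and 87.5 CPM in controls and 58.3 and 73.8 CPM after Septin9 siRNA. The groups overlapped in C2C12 cells, and in primary myoblasts both Septin9-deficient samples lay below both controls. Ect2 fell by 0.33 on the log2 scale in C2C12 cells (standard error 0.07, adjusted p = 0.0047), and the log2 fold change in primary myoblasts was of the same size, -0.33 (standard error 0.11, adjusted p = 0.10).

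Racgap1 (chr15:99620496-99651656) and Kif23 (chr9:61917277-61946810) encode the GTPase-activating protein and the kinesin that together form centralspindlin, which bundles midzone microtubules and binds Ect2. Racgap1 stood at 298 and 161 CPM in C2C12 controls against 253 and 144 CPM after Septin9 siRNA, and at 91.0 and 111 CPM in primary myoblast controls against 73.5 and 97.0 CPM. Kif23 stood at 149 and 79.6 CPM in C2C12 controls against 135 and 73.2 CPM, and at 72.5 and 90.5 CPM in primary myoblast controls against 57.0 and 76.7 CPM. The groups overlapped for both genes in both cell types, although each pair went down. None of the 4 differences was called. The log2 fold change of Racgap1 was -0.20 in C2C12 cells (adjusted p = 0.082) and -0.25 in primary myoblasts (adjusted p = 0.22), and that of Kif23 was -0.13 (adjusted p = 0.33, 95% interval from -0.27 to 0.01) and -0.29 (adjusted p = 0.14). Counted per length of transcript, Racgap1 held between 2.08 and 2.25 times the level of Kif23 in the 4 C2C12 samples and between 1.37 and 1.44 times in the 4 primary myoblast samples. The ratio of these partners thus separated the cell types without overlap. It restates the larger distance of Racgap1 between control cell types, with log2 ratios of -1.08 for Racgap1 and -0.38 for Kif23. The pair was named with its values known, and how many pairs of genes separate likewise was not counted. Cell type, time after transfection and medium cannot be told apart here either.

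Prc1 (chr7:80294445-80316259) crosslinks the antiparallel microtubules of the central spindle, and Kif20a (chr18:34624624-34633277) is the kinesin that carries the passenger complex onto them. Prc1 stood at 167 and 79.5 CPM in C2C12 controls and at 134 and 66.1 CPM after Septin9 siRNA, and at 86.4 and 114 CPM in primary myoblast controls and 65.0 and 95.9 CPM after it. Kif20a stood at 193 and 114 CPM in C2C12 controls and at 172 and 101 CPM after Septin9 siRNA, and at 100.1 and 124 CPM in primary myoblast controls and 79.0 and 107 CPM after it. Control and Septin9-deficient groups overlapped in each of these comparisons. Prc1 fell by 0.29 on the log2 scale in C2C12 cells (standard error 0.07, adjusted p = 0.012) and had a log2 fold change of -0.33 in primary myoblasts (adjusted p = 0.10). The log2 fold changes of Kif20a were -0.17 for C2C12 cells and -0.27 for primary myoblasts, and neither was called (adjusted p = 0.16 and 0.19). Both genes overlap others in the annotation, Prc1 with Rccd1 and Kif20a with Brd8 and Cdc23, so some of their reads may have been counted elsewhere.

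The 2 passenger complex genes had the smallest adjusted p-values of the 10 in both cell types. Aurora B (Aurkb, chr11:69045624-69051664) is its kinase and survivin (Birc5, chr11:117849237-117855743) the subunit that docks it on chromatin and the midzone. Aurkb stood at 65.8 and 31.3 CPM in C2C12 controls and at 53.1 and 21.7 CPM in Septin9-deficient C2C12 cells. In primary myoblasts its levels were 29.3 and 39.3 CPM in controls and 21.8 and 28.0 CPM after Septin9 siRNA. The lower C2C12 control lay below the higher Septin9-deficient sample, whereas in primary myoblasts the groups were separate. Aurkb fell by 0.41 on the log2 scale in C2C12 cells (standard error 0.08, adjusted p = 0.0024) and by 0.46 in primary myoblasts (standard error 0.12, adjusted p = 0.025), to 75.4% and 72.6% of control. Birc5 stood at 90.0 and 45.5 CPM in C2C12 controls and at 64.9 and 34.8 CPM after Septin9 siRNA. In primary myoblasts Birc5 stood at 41.1 and 51.0 CPM in controls and at 31.1 and 36.4 CPM after it. As for Aurkb, the groups were separate in primary myoblasts alone. Birc5 fell by 0.43 in C2C12 cells (standard error 0.07, adjusted p = 0.00073) and by 0.44 in primary myoblasts (standard error 0.11, adjusted p = 0.026). The calls in primary myoblasts were lost with other scalings, since neither gene was called with RLE size factors or library size alone. A pseudogene named after Aurkb, Gm5307, is annotated and could share reads with it.

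Cit (chr5:115845224-116008953) encodes citron kinase, which organises the midbody and holds RhoA and anillin there, and Cep55 (chr19:38054970-38074425) the midbody protein that recruits the abscission machinery. Cit stood at 50.7 and 26.9 CPM in C2C12 controls and at 37.9 and 21.6 CPM after Septin9 siRNA, and at 16.8 and 21.1 CPM in primary myoblast controls and 10.9 and 16.9 CPM after it. Its groups overlapped in both cell types, in primary myoblasts narrowly, between the Septin9-deficient replicate 2 and control replicate 1. Cit fell by 0.37 on the log2 scale in C2C12 cells (standard error 0.08, adjusted p = 0.0057), and its log2 fold change of -0.46 in primary myoblasts was not called (standard error 0.14, adjusted p = 0.059). Its pairs differed there, with -0.62 in pair 1 and -0.31 in pair 2. Cep55 had the smallest change of the 10 genes in primary myoblasts. It stood at 23.3 and 31.6 CPM in controls and at 21.6 and 29.9 CPM after Septin9 siRNA, a log2 fold change of -0.09 (adjusted p = 0.77) with a 95% interval from -0.34 to 0.15. In C2C12 cells Cep55 stood at 67.0 and 39.1 CPM in controls and at 57.7 and 33.5 CPM after it, a log2 fold change of -0.22 (adjusted p = 0.068).

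**Figure D3:**
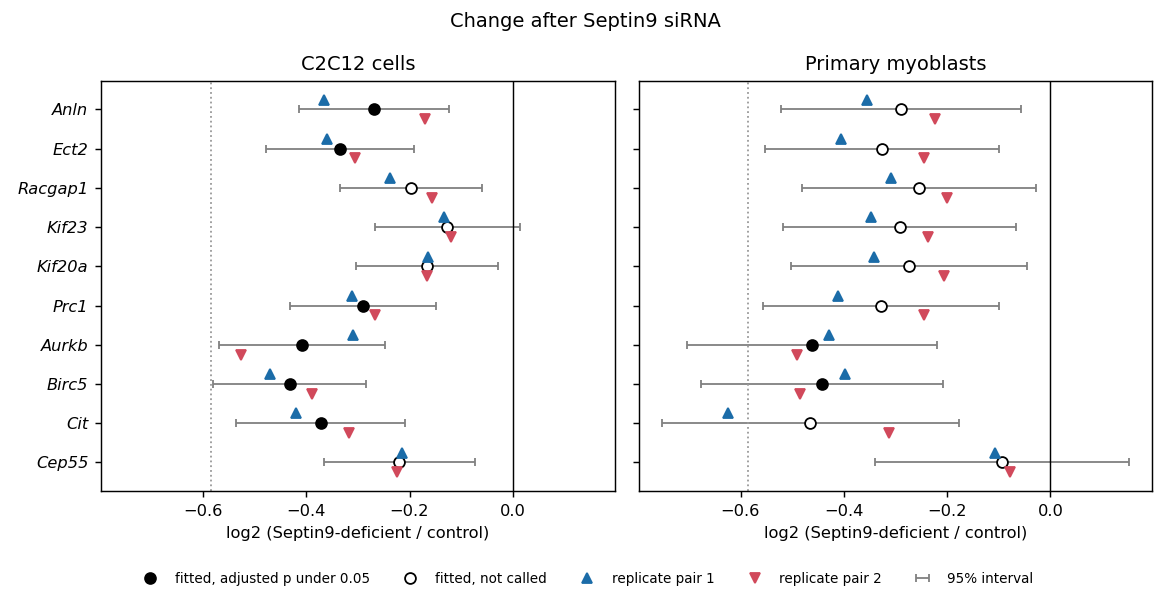
Log2 fold change (horizontal axis) of Septin9-deficient over control cells for each of the 10 genes, with circles for the fitted value (filled where the adjusted p was under 0.05), bars for its 95% interval and triangles for each replicate pair; the dotted line marks a 1.5-fold decrease. All triangles lie left of 0, and all fitted values lie right of the dotted line.

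**Figure D4:**
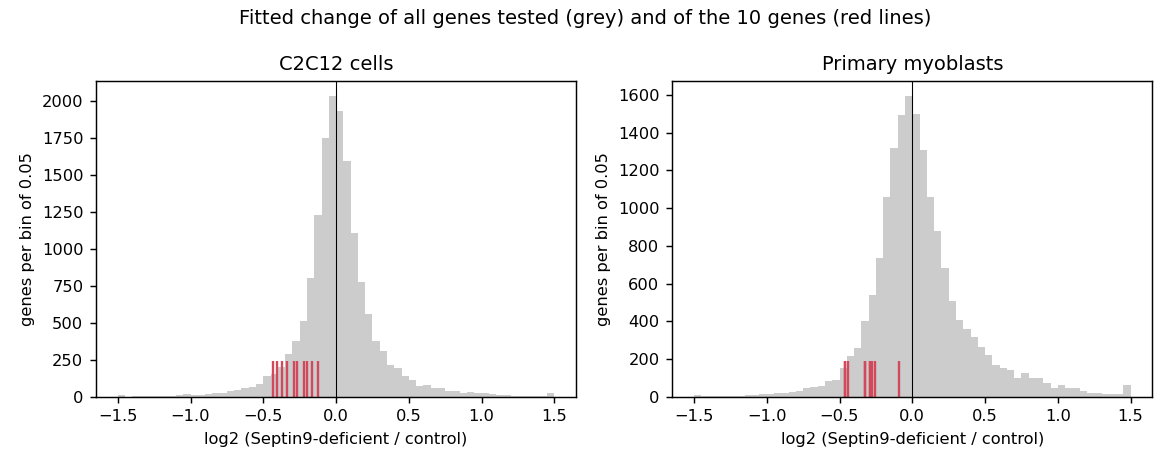
Number of genes (vertical axis) by fitted log2 fold change in bins of 0.05, with the 10 genes as red lines and values beyond 1.5 in either direction collected in the outermost bins. In each cell type the 10 genes lie below 0, within the left shoulder of the distribution of all genes.

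Whether the effect of Septin9 siRNA differed between C2C12 cells and primary myoblasts was tested as an interaction over all 8 samples. Cell type, time after transfection and culture medium changed together here and cannot be told apart. The siRNA dose for primary myoblasts is not given in the sources used here, so it may differ too. The difference, primary myoblasts minus C2C12 cells, ranged from -0.17 for Kif23 (95% interval from -0.42 to 0.07) to 0.12 for Cep55 (95% interval from -0.15 to 0.38) on the log2 scale. For Birc5 it was -0.02 (95% interval from -0.29 to 0.24) and for Aurkb -0.06 (95% interval from -0.36 to 0.24). No interaction was called for the 10 genes or any other gene (0% of 17918) in edgeR on all 8 samples, none of the 10 had an unadjusted p under 0.05, and 1469 of all genes did. With 1 replicate pair left out edgeR called between 51 and 844 genes, and DESeq2 on all samples called 24, with none of the 10 among them in any of these fits. The larger number of calls among the 10 in C2C12 cells therefore does not show a larger effect there.

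In C2C12 cells each of the 10 genes differed more between replicates than between siRNAs. There all 10 were called lower in replicate 2 than in replicate 1, with log2 ratios between -1.18 (Aurkb) and -0.76 (Kif20a) and a median of -0.92, where 18.3% of all genes were called lower. In primary myoblasts all 10 were higher in replicate 2, with log2 ratios between 0.26 (Ect2) and 0.56 (Anln) and a median of 0.38, and 8 were called higher, where 12.5% of all genes were. Ect2 (adjusted p = 0.093) and Birc5 (adjusted p = 0.088) were the exceptions, and DESeq2 called 2 of the 10. Transcripts of muscle differentiation moved the other way. Their median log2 ratio of replicate 2 to replicate 1 was 1.26 in C2C12 cells over 20 tested genes and -1.24 in primary myoblasts over 21. Myog, the transcription factor that starts terminal differentiation, stood at 5.45 and 38.1 CPM in C2C12 control replicates 1 and 2 and at 990 and 389 CPM in primary myoblast control replicates 1 and 2. The replicate with more Myog was thus the one with less of the cytokinesis transcripts in both cell types. Which differences between the independent experiments went with this was not tested.

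Genes that act beside the 10 were examined in lists chosen by function. Of 16 mitotic partners of the furrow and central spindle, such as kinesins and regulators of the passenger complex, 15 were tested and all 15 had a log2 fold change below 0 in each cell type. In C2C12 cells 12 of them were called lower, against 4.12% of all genes, and in primary myoblasts 4, against 1.04% of all genes. Their medians were -0.30 and -0.35. Those called in primary myoblasts were Ccnb1, Spag5, the kinesin Kif18b and Incenp, the scaffold that binds Aurora B and survivin, which fell by 0.29 in C2C12 cells (adjusted p = 0.015) and by 0.41 in primary myoblasts (adjusted p = 0.034). Cyclin B1 (Ccnb1), which drives entry into mitosis, fell by 0.41 in C2C12 cells (adjusted p = 0.00067) and by 0.43 in primary myoblasts (adjusted p = 0.026). The spindle protein Spag5 fell by 0.34 (adjusted p = 0.0046) and 0.43 (adjusted p = 0.042), and Nusap1, a microtubule bundler, by 0.37 in C2C12 cells (adjusted p = 0.0027) with a log2 fold change of -0.39 in primary myoblasts (adjusted p = 0.071). Other genes of G2 and mitosis gave similar values, with 25 of 38 called lower in C2C12 cells and 6 of 38 in primary myoblasts. None was called higher, and the medians were -0.28 and -0.34. The shares of all genes called lower are the same as above, here and in the lists below. The proliferation marker Mki67 fell by 0.50 and the kinetochore gene Cenpf by 0.48 in C2C12 cells (adjusted p = 0.00017 for both), and in primary myoblasts their log2 fold changes were -0.47 (adjusted p = 0.056) and -0.39 (adjusted p = 0.055). Ccna2, the cyclin of S phase and G2, fell by 0.34 in C2C12 cells (adjusted p = 0.0040) and had a log2 fold change of -0.29 in primary myoblasts (adjusted p = 0.15). DESeq2 with the block called 1 of the 15 partners and 4 of the 38 other genes of G2 and mitosis in C2C12 cells. In primary myoblasts it called none of either list. There 14 of 15 and 32 of 38 had an unadjusted p under 0.05 in edgeR, as did 2864 of all 17117 genes.

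Machinery that works in cytokinesis without being limited to dividing cells gave medians closer to 0. Among 23 genes of the contractile ring, RhoA and actomyosin, 22 were tested in C2C12 cells and 2 were called lower, the myosin phosphatase subunit Ppp1r12a (log2 fold change -0.27, adjusted p = 0.022) and Rhob (-0.22, adjusted p = 0.046), while 18 of the 22 were below 0 and 11 had an unadjusted p under 0.05. DESeq2 with the block called 1 of the 22 in C2C12 cells. None of the 23 was called in primary myoblasts by edgeR or DESeq2, with 5 at an unadjusted p under 0.05 in edgeR, and the medians were -0.10 and -0.09. Single members reached the size of the cytokinesis genes there without being called, among them the myosin heavy chain Myh9 (log2 fold change -0.41, adjusted p = 0.16), Flna (-0.39, adjusted p = 0.19) and Actb (-0.37, adjusted p = 0.25). Of 25 ESCRT-III and abscission genes, Chmp4b alone was called by edgeR, lower in C2C12 cells (log2 fold change -0.22, adjusted p = 0.048). DESeq2 with the block called none of the 25, and the medians were -0.06 and 0.04. Of 13 septin genes 9 and 11 were tested. Besides Septin9, Septin1 rose by 0.62 in C2C12 cells (adjusted p = 0.0085) and by 1.08 in primary myoblasts (adjusted p = 0.0013), and Septin6 rose by 0.32 in C2C12 cells (adjusted p = 0.011), with 0.05 in primary myoblasts (adjusted p = 0.90). Septin1 overlaps the muscle gene Mylpf in the RefSeq annotation, though not in that of GENCODE, so its value is uncertain. Septin7, the core subunit of septin filaments, had log2 fold changes of -0.03 and 0.02 (adjusted p = 0.88 and 0.96).

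For genes of S phase the values differed from those of the mitotic lists in C2C12 cells. None of the 27 was called there by edgeR or DESeq2, with 5 at an unadjusted p under 0.05 in edgeR, and their median was -0.03, whereas in primary myoblasts all 27 were below 0, 2 were called lower and the median was -0.25. The chromatin assembly genes Chaf1a and Chaf1b were these 2, with falls of 0.40 (adjusted p = 0.036) and 0.48 (adjusted p = 0.041). DESeq2 with the block called none of the 27 in primary myoblasts. The difference between these lists was not tested. Of 19 regulators that time these genes, from the MuvB, B-Myb, FoxM1 and E2F families, 3 were called lower and 2 higher in C2C12 cells, and 3 lower and 1 higher in primary myoblasts. The genes called were Tfdp1, E2f7, Foxm1, E2f1 and E2f2 in C2C12 cells and Tfdp1, E2f7, Mybl2 and E2f2 in primary myoblasts. DESeq2 with the block called 2 of the 19 in C2C12 cells and 1 in primary myoblasts. Tfdp1, a dimerisation partner of E2F factors, had the largest change among the regulators called. It stood at 196 and 126 CPM in C2C12 controls and 86.4 and 68.3 CPM after Septin9 siRNA, and at 167 and 179 CPM in primary myoblast controls and 82.5 and 62.9 CPM after it. Its groups were separate in both cell types, and Tfdp1 fell by 1.03 (adjusted p = 2.2e-07) and by 1.26 (adjusted p = 2.5e-05) on the log2 scale. E2f2 rose by 0.49 (adjusted p = 0.00016) and 0.53 (adjusted p = 0.012). Foxm1, the activator of G2 and mitosis genes, fell by 0.35 in C2C12 cells (adjusted p = 0.0042) and had a log2 fold change of -0.32 in primary myoblasts (adjusted p = 0.13).

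Of the muscle differentiation genes, 10 of 20 tested were called higher in C2C12 cells, against 2.64% of all genes, and 18 of 21 in primary myoblasts, against 3.95% of all genes. None was called lower, the medians were 0.63 and 0.89, and DESeq2 with the block called 3 of 20 and 13 of 21. Myog rose by 1.03 (adjusted p = 2.3e-05) and by 0.89 (adjusted p = 0.0027), and Mymx, which encodes a fusion peptide, by 1.13 (adjusted p = 0.0013) and 0.81 (adjusted p = 0.00056). Tnnc2, a troponin of fast fibres, rose by 1.00 in primary myoblasts (adjusted p = 0.00035) and had a log2 fold change of 0.61 in C2C12 cells (adjusted p = 0.17). Among 8 genes of myoblast identity 3 were called higher in C2C12 cells, Myod1 by 0.54 (adjusted p = 4.6e-05), Des by 0.49 (adjusted p = 0.00026) and Cdh15 by 0.38 (adjusted p = 0.0025). In primary myoblasts Des rose by 0.57 (adjusted p = 0.041) and 2 of the 8 were called lower, Myf5 by 0.78 (adjusted p = 0.0068) and Pax7, a marker of muscle stem cells, by 0.44 (adjusted p = 0.022). DESeq2 with the block called 3 of the 8 in C2C12 cells and 2 in primary myoblasts. Of the fibroblast markers, Thy1 was called, higher in primary myoblasts by 0.80 (adjusted p = 0.043), at 0.501 and 8.30 CPM in controls and 0.942 and 14.2 CPM after Septin9 siRNA. DESeq2 with the block called no fibroblast marker. No endothelial or leukocyte marker was called in either cell type by edgeR or DESeq2, and of these 2 leukocyte markers had an unadjusted p under 0.05, in primary myoblasts. Of these, Cdh5, Pecam1, Cd68 and Lyz2 had the highest control levels, and none of the 4 exceeded 2.50 CPM in a primary myoblast sample.

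**Figure D5:**
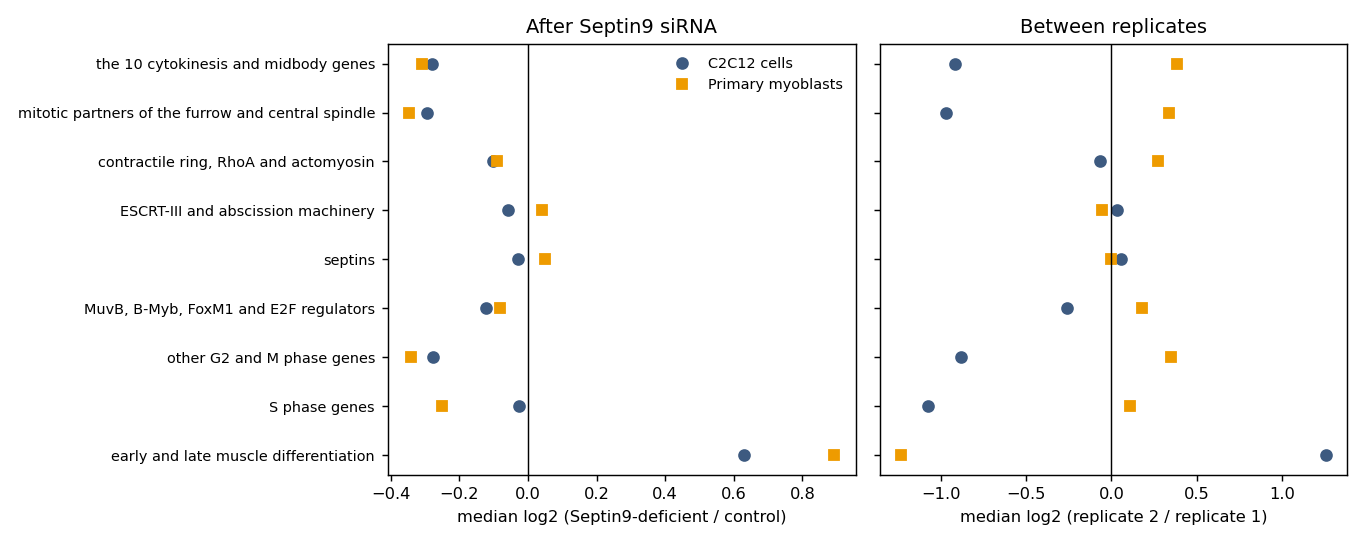
Median log2 ratio (horizontal axes) of each gene list after Septin9 siRNA (left) and between replicates (right), with circles for C2C12 cells and squares for primary myoblasts. The 10 genes lie beside the other mitotic lists in both panels, and differentiation genes lie on the opposite side of 0 from them in each panel and cell type.

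Across the 8 samples the 10 genes varied together. Each gene's log2 CPM had a Pearson correlation between 0.909 (Racgap1) and 0.996 (Kif20a) with the mean standardised log2 CPM of all 10, a mean of which each gene is itself a part. Among 17908 genes outside the 10, the most alike to that mean were Sgo2a, which protects centromeric cohesion (r = 0.997), the repressor E2f7 (r = 0.993), Cdc23, a subunit of the anaphase-promoting complex (r = 0.993), BC055324 (r = 0.992) and Ccna2 (r = 0.992). These values over 8 samples share the difference between cell types and between replicates, and Cdc23 overlaps Kif20a on the chromosome. After Septin9 siRNA all 5 had log2 fold changes below 0 in both cell types. In C2C12 cells Sgo2a, E2f7 and Ccna2 fell by 0.35, 0.37 and 0.34 (adjusted p = 0.0047, 0.014 and 0.0040). Cdc23 and BC055324 had log2 fold changes of -0.10 and -0.14 there and were not called (adjusted p = 0.45 and 0.37). In primary myoblasts E2f7 fell by 0.57 (adjusted p = 0.025). The other 4 were not called there, with log2 fold changes of -0.29 for Sgo2a, -0.18 for Cdc23, -0.11 for BC055324 and -0.29 for Ccna2. Differences between these genes were not tested.

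Ratios between members show where their changes were unequal. Per length of transcript, Aurkb stood at between 1.07 and 1.40 times Birc5 in C2C12 cells and between 1.20 and 1.32 times in primary myoblasts. Cit stood at 0.220 and 0.199 of Cep55 in C2C12 controls and at 0.190 and 0.187 after Septin9 siRNA, and at 0.209 and 0.193 in primary myoblast controls and 0.146 and 0.164 after it. The Cit to Cep55 ratio was thus lower in both Septin9-deficient samples than in both controls of each cell type. Birc5 stood at 0.617 and 0.583 of Kif23 in C2C12 controls and at 0.489 and 0.484 after Septin9 siRNA, again without overlap, and at 0.577 and 0.574 in primary myoblast controls and 0.557 and 0.484 after it. Prc1 to Kif20a overlapped, at 1.05 and 0.850 in C2C12 controls against 0.949 and 0.793 after Septin9 siRNA. In primary myoblasts it stood at 1.05 and 1.12 in controls against 0.999 and 1.09. The size of each ratio depends on the length chosen, which scales it alike in every sample. With the length of all annotated exons, the mean control level of Aurkb came below that of Birc5. The values were 15.9 against 19.2 RPKM in C2C12 cells and 12.1 against 14.0 RPKM in primary myoblasts. Prc1 then stood at 14.4 against 34.1 RPKM for Kif20a in C2C12 controls, and at 12.6 against 26.7 RPKM in primary myoblast controls. These pairs were set side by side with the values known, so a separate ratio restates the unequal falls of its 2 genes. How many pairs of genes separate likewise was not counted, and no test was made.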

How the data were processed

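PolyA RNA of 8 samples was sequenced. The authors aligned the paired-end reads with STAR 2.7.2 (GRCm38.p6), counted them with featureCounts 2.0.1 and deposited raw counts per gene without normalization. They also deposited, per cell type, a normalized signal of batch-corrected counts (ComBat-Seq) divided by DESeq2 1.40.1 size factors. In 100% of values whole reads were recovered from this signal (tolerance 0.05). Broken lines (16, with the genes Dst, Huwe1, Mycbp2, Neb and Syne1) were dropped. Samples were grouped by their labels.

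Each cell type was fitted alone with edgeR 4.0.16 (R 4.3.3): filterByExpr, TMM, quasi-likelihood test, replicate number as a block, Benjamini-Hochberg adjustment over all genes tested. The block follows the 2 independent experiments of the study's methods; deviations from group means correlated within replicate numbers across genes by 0.678 in C2C12 cells and 0.820 in primary myoblasts. Whether replicates are separate cultures in every step is not stated beyond this. P-values of the fits with the block measure how far the 2 pair ratios of a cell type disagree, with variance shared across genes. They do not measure the spread between replicates, which the block removes. Pair ratios used log2 CPM with a prior count of 2. Standard errors came from fold changes and F statistics.

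The 10 genes and all lists were chosen with earlier results of these data known. Named genes are the 10, Septin9, up to 3 genes per list with the smallest adjusted p (otherwise the 2 with the highest control level), and the 5 most correlated genes; Septin7, Incenp, Kif18b, E2f1, Mybl2, Myf5, Pax7, Col3a1, Myh9, Flna, Actb and the genes of the ratios were named after their values were seen. Alternatives were RLE size factors, library size alone, no filter, at least 10 counts in every sample, no block, 1 fit of all 8 samples, DESeq2 1.42.0 on raw and on batch-corrected counts, the 1.5-fold threshold and each replicate left out; the union of exons as gene length was added after the data were seen. The fits were tested on simulated data. Transcript lengths came from GENCODE on GRCm38, and gene positions from RefSeq. Figures were drawn with matplotlib 3.10.9.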

Additional observations from a re-analysis of the deposited data

How the results depend on the processing

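All 10 genes stayed below 0 after Septin9 siRNA in both cell types under every alternative fitted, and the median of the 10 stayed between -0.30 and -0.26 in C2C12 cells and between -0.36 and -0.26 in primary myoblasts. The number of genes called depended on the processing. In C2C12 cells, 6 were called. This became 0 without the replicate block, 1 with DESeq2 and the block (Birc5), 0 with all 8 samples in one fit and 0 with the 1.5-fold threshold. Leaving out a replicate pair leaves 1 sample per group, and the lone pair is assumed to vary like the other cell type. The median of the 10 in C2C12 cells was then -0.26 without replicate 1 and -0.29 without replicate 2. Other scalings and filters gave 6 and the batch-corrected counts 7. In primary myoblasts, 2 were called; this became 0 with RLE size factors, 0 with library size alone, 0 without the replicate block, 0 with DESeq2 and the block, 5 with DESeq2 on the batch-corrected counts and 0 with the 1.5-fold threshold, and was 3 with no filter and 3 with all 8 samples in one fit (Aurkb, Birc5 and Cit in both). With 1 primary myoblast replicate pair left out, the median of the 10 was -0.26 without replicate 1 and -0.36 without replicate 2. Without replicate 2 the log2 fold change of Cit was -0.61. Over the whole table, 1068 and 854 genes were called with the replicate block and 0 without it. Between control cell types 0 of the 10 were called, 2 with DESeq2 and 1 with all 8 samples in one fit. The latter fits called 6486 of 27072 and 7463 of 17918 genes in all. Between primary myoblast replicates 8 of the 10 were called, or 2 with DESeq2. With the replicate number as a block across the control cell types, 0 were called. The cause of these changes was not tested. Each of the 10 genes had at least 254 counts in every sample, in groups of 2 replicates.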
